A study of Mus musculus with 36 samples.

Results

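Cytochrome P450 enzymes are heme monooxygenases that insert 1 oxygen atom into sterols, steroids, fatty acids, vitamins and drugs. Most sit in the endoplasmic reticulum and receive electrons from P450 oxidoreductase (Por), while those of the mitochondrion receive them from the ferredoxin Fdx1 and its reductase Fdxr. The family is best known from liver, where many members clear foreign compounds, but some have roles in brain, such as the removal of cholesterol by Cyp46a1. The genes described here are the 91 whose symbols have the form Cyp, family number, subfamily letter and gene number, out of 40205 genes counted, and 2 further genes of that form, Cyp2e1 and Cyp26b1, were left out. The choice used the symbol alone and no measured value.

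RNA was sequenced from neural stem cells (NSCs) of the mouse dorsal telencephalon, the future cerebral cortex, grown as free-floating neurospheres, and from the extracellular vesicles (EVs) that they released into the medium. The labels give the mice as C57BL/6J with genotype WT, and the study's methods name them C57BL/6J (Ai14), a line that carries a Cre-dependent fluorescent reporter. Fetuses were taken at gestational day 12.5, the tissue of a pregnancy was pooled by fetal sex, and 3 pregnancies (sets 3, 4 and 5) gave 3 female and 3 male cultures. Every culture was kept for 5 days at 0 (control), 120 or 320 mg/dL ethanol, and each culture and dose gave 1 cell library and 1 EV library, so 36 libraries formed 12 conditions of 3. The 3 libraries of a culture came from the same pool of fetuses, and all cultures had been passaged before exposure.

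The cell libraries held 26.6 to 55.3 M counts (M, 1000000) and the EV libraries 0.959 to 5.51 M, so 1 count was worth 0.0181 to 0.0376 CPM (counts per M counts of the library) in cells and 0.181 to 1.04 CPM in EVs. Of 8 NSC markers, 7 were at 0.5 CPM or more in every cell library. The exception, Sox2, was at 0 in all 36 libraries, and its whole span lies inside another gene, Sox2ot. None of 12 hepatocyte markers reached 0.5 CPM in every cell library, and their summed level was 1.79 to 3.78 CPM in cells and 2.50 to 30.2 CPM in EVs, with none of the 12 at 0 throughout. In bulk libraries such as these, fewer cells of a type and less RNA per cell cannot be told apart.

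7 members had no count in any of the 36 libraries, among them Cyp11b1, Cyp26c1, Cyp2c38 and Cyp4a14, and these values carry no information on expression. In the RefSeq gene table (GRCm38.p6) these 7 are exactly the members whose whole span lies inside another gene, and each of the 84 members with some span of its own had counts. The same held across the series, where 93.8% of 934 protein-coding genes lying wholly inside other genes were at 0 in all libraries, against 4.53% of 20282 genes with over 50% of their span free. The counts of the other members can therefore hold intronic as well as exonic reads, and whether strand was used in counting is not given in the sources used here.

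13 members were expressed in NSCs, taken as at least 0.5 CPM in each of the 18 cell libraries: Cyp2j6, Cyp20a1, Cyp2j9, Cyp4f13, Cyp7b1, Cyp4f16, Cyp1b1, Cyp39a1, Cyp2u1, Cyp46a1, Cyp4f17, Cyp27b1 and Cyp24a1. A further 28 were intermediate, with a mean of 0.1 CPM or more in cells, and 43 were near zero, with means of 0.00443 to 0.0932 CPM. With a floor of 0.1 CPM 25 members were expressed, with 1 CPM 10, and with 0.5 CPM per kilobase of exon 6. The 13 took 92.9% of the 123749 counts of all members in cells but 61.4% of the 4443 in EVs.

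The bases in front of the transcription start differed among these classes, so a few are shown. CpG-rich promoters are common among genes active in many tissues, and CpG-poor ones among tissue-restricted genes. The 150 bases upstream of the start are given for an expressed gene with a CpG-rich start (Cyp20a1), the expressed brain gene Cyp46a1, the most abundant neighbours Cyp2j6 and Cyp2j9, and the liver gene Cyp2c29, with every CG in capitals. They were read from the GRCm39 genome 5′ to 3′ on the strand of the gene, at chr1:60382308-60382457 (plus strand), chr12:108300350-108300499 (plus), chr4:96441930-96442079 (minus), chr4:96479942-96480091 (minus) and chr19:39275368-39275517 (plus), in that order.
Cyp20a1: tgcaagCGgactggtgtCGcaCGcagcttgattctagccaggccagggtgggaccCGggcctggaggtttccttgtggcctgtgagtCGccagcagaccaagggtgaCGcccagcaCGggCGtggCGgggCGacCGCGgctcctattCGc
Cyp46a1: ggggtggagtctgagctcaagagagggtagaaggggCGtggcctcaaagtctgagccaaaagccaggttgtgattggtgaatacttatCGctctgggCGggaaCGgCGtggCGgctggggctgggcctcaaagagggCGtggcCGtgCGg
Cyp2j6: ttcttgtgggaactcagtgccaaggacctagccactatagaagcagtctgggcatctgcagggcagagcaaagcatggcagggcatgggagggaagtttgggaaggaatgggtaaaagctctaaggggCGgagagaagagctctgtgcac
Cyp2j9: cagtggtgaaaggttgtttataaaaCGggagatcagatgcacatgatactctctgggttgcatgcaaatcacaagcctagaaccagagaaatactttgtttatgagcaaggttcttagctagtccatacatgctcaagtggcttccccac
Cyp2c29: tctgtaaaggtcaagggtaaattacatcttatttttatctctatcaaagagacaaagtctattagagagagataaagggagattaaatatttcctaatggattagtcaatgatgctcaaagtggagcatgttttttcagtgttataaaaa

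Cyp20a1 holds 13 CG in this window and Cyp46a1 9, against 1 each in Cyp2j6 and Cyp2j9 and 0 in Cyp2c29. The Cyp2j6 and Cyp2j9 windows share 42 of 150 positions when aligned without gaps. Over windows from 250 bases before to 50 after the start, the ratio of observed to expected CG was 0.6 or more in 5 of 13 expressed members, 1 of 28 intermediate and 1 of 43 near-zero members, against 47.0% of 19231 protein-coding genes and 67.1% of the 11825 of them that reached 0.5 CPM in every cell library. Among the expressed members the ratio ran from 0.0879 in Cyp4f16 and 0.0909 in Cyp27b1 to 0.869 in Cyp46a1, and the most abundant, Cyp2j6, was at 0.175. High counts in NSCs were thus found on both sides of the limit.

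**Figure D1:**
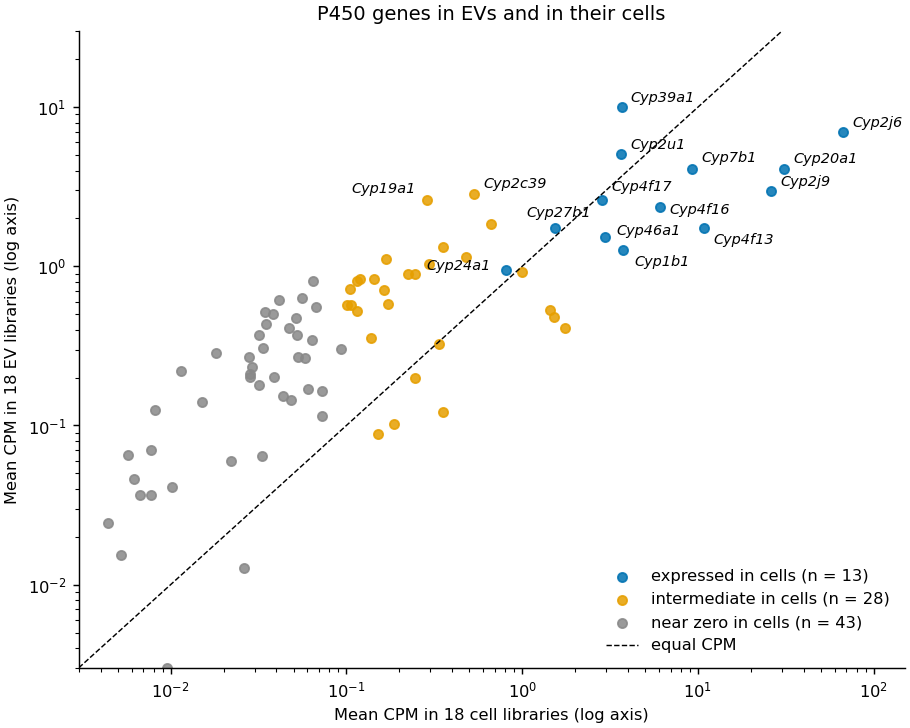
Mean CPM of P450 genes over 18 cell libraries (x axis, log) and 18 EV libraries (y axis, log); each point is 1 gene, coloured by its class in cells, the dashed line marks equal CPM, and Cyp17a1, with no count in EVs, is drawn at the lower edge. The 13 expressed genes spread over 0.808 to 67.3 CPM in cells but 0.950 to 10.0 CPM in EVs, and 41 of 43 near-zero genes lie above the line.

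Cyp2j6 and Cyp2j9, of a subfamily that oxidises arachidonic acid, and the orphan Cyp20a1, an enzyme with no settled substrate, led in cells and together held 67.9% of the members' counts there. Cyp2j6 ran from 31.2 to 100.3 CPM over the 18 cell libraries (median 68.1), Cyp20a1 from 21.1 to 49.6 (median 29.3) and Cyp2j9 from 7.64 to 53.8 (median 21.7). Per kilobase of exon their mean cell levels were 16.6, 12.2 and 5.23 CPM, and the next highest was Cyp39a1 at 1.19. Per kilobase of the whole gene, introns included, the order was Cyp2j6 at 1.79, Cyp2j9 at 0.761 and Cyp20a1 at 0.693 CPM, so the last 2 changed places.

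Cyp2j6 (chr4:96404375-96441935 in GRCm39, minus strand) and Cyp2j9 (chr4:96445637-96479941) lie side by side in a cluster of 7 Cyp2j genes that spans 637 kb. The members of the cluster differed widely in cells: the mean was 1.53 CPM for Cyp2j13, 1.00 for Cyp2j8, 0.114 for Cyp2j11, 0.101 for Cyp2j5 and 0.0524 for Cyp2j12. The 8 genes of the Cyp4f cluster on chromosome 17, ω-hydroxylases of leukotrienes and fatty acids, spread over 495 kb and ranged from 10.8 CPM in Cyp4f13 and 6.10 in Cyp4f16 to 0.0435 in Cyp4f37. Of the 15 Cyp2c genes of chromosome 19, most of them known from liver, Cyp2c38 could not be judged. All the others missed the floor in at least 1 cell library, and the highest mean was 0.667 CPM for Cyp2c23. Sequence shared with other members was small among the 13 expressed genes: none shared over 10% of the 100-base stretches of its transcripts with another member and 11 shared none, whereas 9 of the 43 near-zero members passed 10%.

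By role, the cholesterol and bile acid group held 3 expressed genes of 6. Cyp7b1, a hydroxylase of oxysterols and neurosteroids, was at 9.27 ± 3.71 CPM (SD, n = 18 cell libraries), Cyp39a1, which acts on the oxysterol made by Cyp46a1, at 3.68 ± 0.84, and Cyp46a1 at 2.97 ± 1.10. Cyp7a1, the rate-limiting enzyme of bile acid synthesis in liver, had 8 counts over all 18 cell libraries. Of the 3 vitamin D genes, the activating Cyp27b1 was at 1.54 ± 0.58 CPM and the degrading Cyp24a1 at 0.81 ± 0.27, and Cyp2r1, at 0.110 to 0.527 CPM, reached the floor in 2 of 18 cell libraries. Of the 6 steroid hormone genes Cyp11b1 could not be judged and none of the other 5 was expressed, with aromatase, Cyp19a1, at 0.288 ± 0.160 CPM. None of the 7 Cyp3a genes, the main drug-clearing family of liver, was expressed, and Cyp3a11 was at 0.0646 ± 0.0612 CPM. Of the retinoic acid hydroxylases Cyp26a1 was at 0.0333 CPM and Cyp26c1 could not be judged.

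Of the 3 family 1 genes, which the aryl hydrocarbon receptor (AHR) induces, Cyp1b1 was expressed, at 3.75 ± 2.72 CPM, while Cyp1a1 and Cyp1a2 were at 0.0335 ± 0.0354 and 0.0220 ± 0.0246 CPM. The core of the AHR response element, GCGTG, was searched on both strands (as GCGTG or CACGC) in the same windows of 250 bases before to 50 after the start, where 39.7% of 19231 protein-coding promoters hold it and 1.57% hold 4 or more. Cyp1a1 held 4 and Cyp1b1 held 1, and the 150 bases upstream are shown to set the induced gene at near zero beside the expressed one, with the core in capitals, for Cyp1b1 at chr17:80022533-80022682 (minus strand) and Cyp1a1 at chr9:57603992-57604141 (plus strand) in GRCm39. A match is a run of letters and no measured binding.
Cyp1b1: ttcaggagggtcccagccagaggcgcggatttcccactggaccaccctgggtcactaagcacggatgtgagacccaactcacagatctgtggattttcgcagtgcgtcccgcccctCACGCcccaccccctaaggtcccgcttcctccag
Cyp1a1: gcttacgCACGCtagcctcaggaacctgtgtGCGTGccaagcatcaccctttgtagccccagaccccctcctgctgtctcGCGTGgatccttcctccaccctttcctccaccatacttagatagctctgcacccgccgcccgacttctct

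Among the electron donors and heme proteins, 9 of 10 reached 0.5 CPM in every cell library, with Por at 28.0 ± 5.86 CPM, Fdx1 at 14.97 ± 2.90 and Fdxr at 5.50 ± 1.60. Of the nuclear receptors and other regulators 8 of 14 did, with Arnt, the partner of AHR, at 37.4 ± 10.4 CPM, Tiparp at 107.5 ± 38.6 and Ahr at 2.79 ± 1.43. Of the receptors known from liver, Rxra was at 14.6 ± 3.22 CPM and Ppara at 8.01 ± 2.91, while Hnf4a was at 0.26 ± 0.11 CPM, Nr1i2 at 0.36 ± 0.14 and Nr1i3 at 0.53 ± 0.32. Of the P450 enzymes whose symbols fall outside the form used here, the sterol synthesis gene Cyp51 was at 189.8 ± 92.0 CPM.

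Differences between cultures were the main feature of the cell levels. As a description, culture accounted for a median of 83.6% of the spread of log2(CPM + 0.1) over the 18 cell libraries in the 13 expressed members. It was 75.9% in the 28 members tested in cells and 68.8% in all 17792 genes tested there. Dose accounted for 2.18%, 2.90% and 3.23% in these 3 sets. The 13 had been chosen by a floor in every cell library, which the other sets did not have to meet. Cyp1b1 was lowest in the set 3 female culture, at 0.98 ± 0.31 CPM over its 3 libraries, and highest in the set 5 female culture, at 7.68 ± 0.41. The set 4 female and male cultures of the same pregnancy were at 1.12 ± 0.09 and 3.91 ± 0.22. Culture accounted for 97.7% of the spread of Cyp1b1, and no library of the set 5 cultures fell below 6.30 CPM while none of the set 3 and set 4 female cultures passed 1.30.

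Cyp2j9 ran from 7.86 ± 0.31 CPM in the set 3 female culture to 46.8 ± 9.8 in the set 4 male culture, and its neighbour Cyp2j6 from 34.4 ± 3.4 in the set 3 female to 89.2 ± 3.1 in the set 5 male culture. Cyp4f13 fell into 2 levels, 7.13 to 8.29 CPM in the means of the set 3 cultures and the set 4 female culture and 13.6 to 14.3 in the other 3. The same 3 cultures, set 4 male and both of set 5, were also the highest for Cyp1b1, Cyp2j6, Cyp2j9, Cyp2j13 and Cyp46a1. Cyp7b1 was highest in the set 3 male culture at 13.6 ± 3.3 CPM and lowest in the set 3 female at 5.13 ± 0.87. Cyp4f15, an intermediate member, varied most widely of the genes named here, from 0.13 ± 0.07 CPM in the set 3 male to 3.01 ± 0.31 in the set 4 male culture. Cyp4f16 was the most even, at 5.59 to 6.89 CPM in the means of the 6 cultures.

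**Figure D2:**
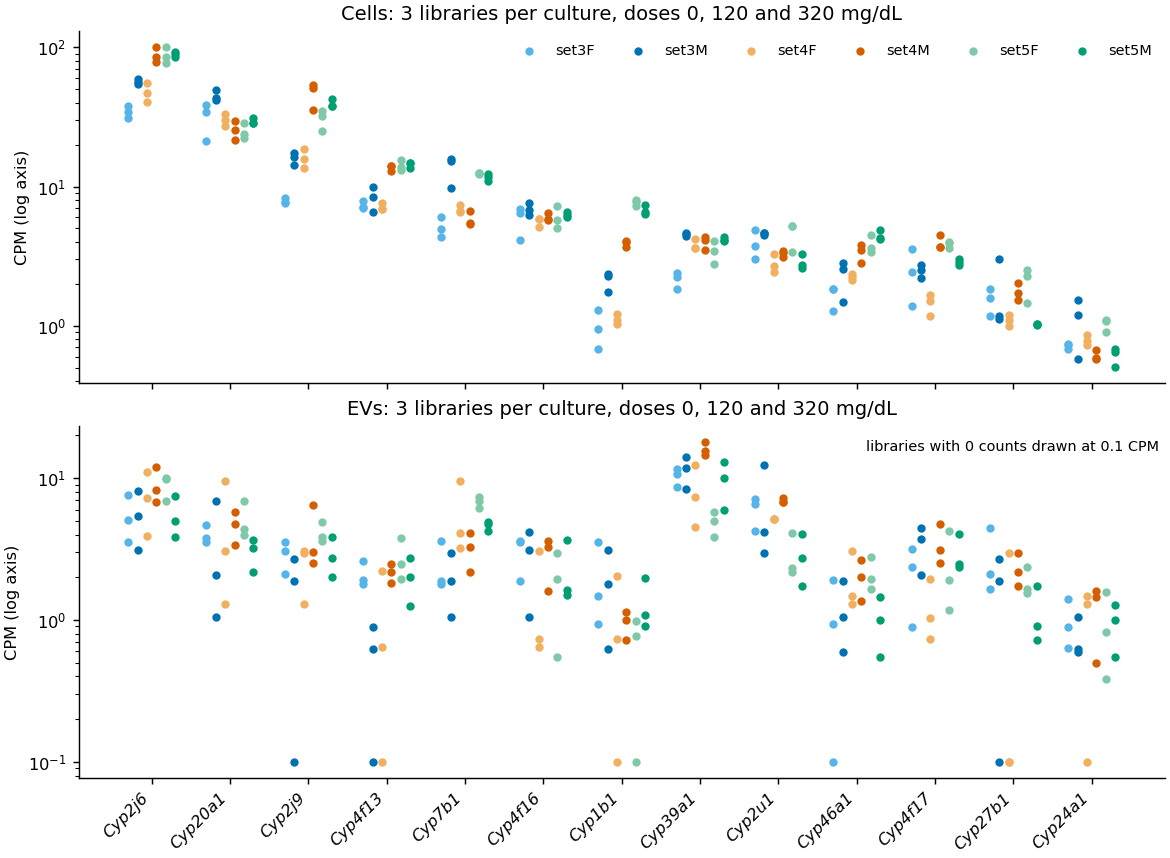
CPM (y axis, log) of the 13 expressed P450 genes in cells (upper) and EVs (lower); each point is 1 library, each colour 1 culture (pregnancy set and fetal sex) with its 3 doses. In cells the 3 libraries of a culture lie close together for Cyp1b1, at 7.22 to 8.02 CPM in the set 5 female culture, but not for Cyp27b1 in the set 3 male culture, at 1.12, 1.17 and 3.00 CPM, and in EVs some libraries have 0 counts.

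In EVs the order of the cultures was another one for several members. Cyp1b1, lowest in the cells of the set 3 female culture, was highest in its EVs at 1.99 ± 1.38 CPM, and lowest in the EVs of the set 5 female culture at 0.59 ± 0.52, but it had 66 counts over all 18 EV libraries. Cyp39a1 with 608 EV counts was better measured, and ran from 4.84 ± 0.94 CPM in the EVs of the set 5 female culture to 15.9 ± 1.8 in those of the set 4 male culture. The cells of the same cultures were at 3.43 ± 0.62 and 3.98 ± 0.41 CPM in cells.

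The EVs held a flatter P450 profile than the cells, and more members were detected in them only at equal library totals. A median of 51 of the 91 members (range 29 to 74) had at least 1 count in an EV library and 68 (57 to 74) in a cell library. When every library was thinned to 0.959 M counts, the smallest total, which matches totals but not composition, the medians were 29 (23 to 59) in EVs and 20 (16 to 24) in cells. Summed over all members the level was 48.8 to 164.8 CPM in EVs (median 76.4) and 96.9 to 235.2 in cells (median 192.7). The first 3 genes of the EVs, Cyp39a1, Cyp2j6 and the fatty acid hydroxylase Cyp2u1, held 29.2% of the members' EV counts. Per kilobase of exon the EV means were 3.25 CPM for Cyp39a1, 1.71 for Cyp2j6, 1.62 for Cyp20a1, 1.00 for Cyp2c39 and 0.782 for Cyp2u1. Per kilobase of gene the leaders were Cyp27b1 at 0.368 and Cyp2u1 at 0.341, ahead of Cyp2j6 at 0.185 and Cyp39a1 at 0.119.

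Within each class of members with counts, EV levels followed the length of the gene with its introns and not that of its exons. Over the 43 near-zero members Spearman's rho of EV CPM was 0.85 with gene length and 0.03 with exon length. It was 0.66 and -0.02 over the 28 intermediate members, and 0.65 and -0.18 over the 13 expressed members. Over all 84 members with some span of their own it was 0.66 and 0.30. Over 2971 protein-coding genes under 0.1 CPM in cells it was 0.56 and 0.40. These are descriptions across genes, which share libraries and are not independent. Cell CPM had a rho with gene length of 0.56 over the near-zero, -0.06 over the intermediate and 0.62 over the expressed members. Among the expressed members the relation to gene length was thus about as strong in cells as in EVs. Per kilobase of gene the near-zero members had a median of 0.0120 CPM in EVs and 0.00158 in cells, and 1105 olfactory receptor genes, which NSCs are not known to use, 0.00341 and 0.00120. 1 near-zero member in cells and 0 in EVs exceeded the 95th percentile of the olfactory genes per kilobase, against 28 and 13 of all 91 members. In EVs the olfactory values spread widely, from a lower quartile of 0 to a 95th percentile of 0.0574. The lower quartile of the near-zero members there, 0.00885, was above the olfactory median.

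**Figure D3:**
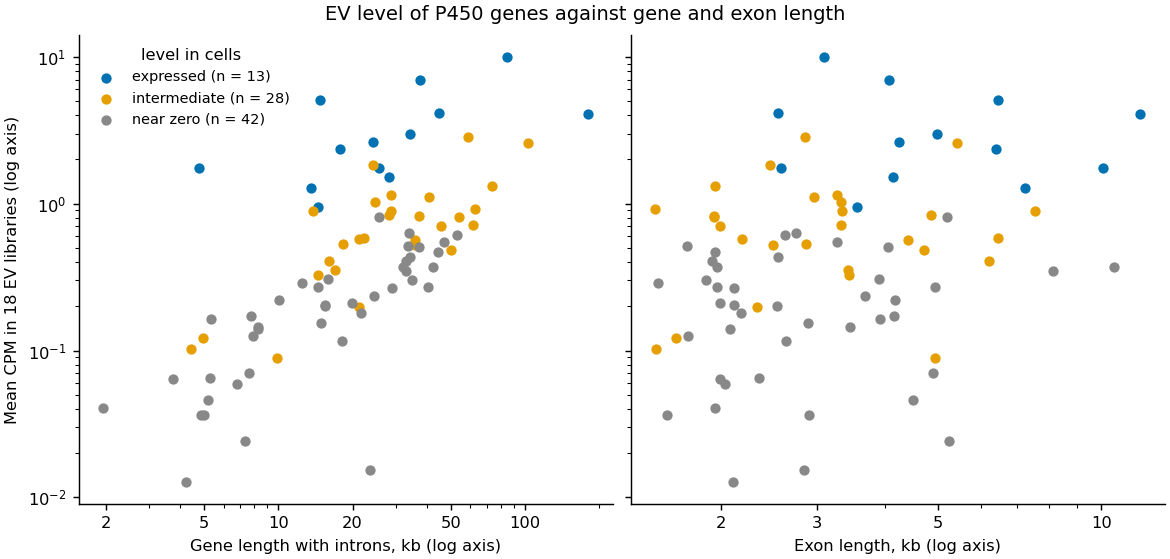
Mean CPM in 18 EV libraries (y axis, log) against gene length with introns (left, log) and exon length (right, log), in kb; each point is 1 P450 gene with counts in EVs, coloured by its class in cells. The 42 near-zero genes shown climb with gene length on the left and form a cloud on the right.

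Cyp39a1, Cyp2u1, aromatase, 3 Cyp2c genes and the vitamin D pair were higher in EVs than in cells on the TMM scale, and Cyp2j6, Cyp2j9, Cyp20a1 and 3 of 5 tested Cyp4f genes were lower. Of the 91 members 21 had enough counts to test, and 16 passed an adjusted p of 0.05 in edgeR's quasi-likelihood test, 9 higher and 7 lower in EVs. The background was dense, since 80.5% of all 15281 genes tested were called, 38.4% higher and 42.2% lower, so a call here says little about the members as a group. The filter itself fixed part of this split: 4 of the 9 higher members met it through the EV libraries alone, and 2 of the 7 lower, Cyp1b1 and Cyp4f13, through the cells alone, with 15 of 18 EV libraries also at the limit. Cyp4f14, also called lower, met it through neither alone but mostly through the cells. It was at the limit in 15 of 18 cell and 4 of 18 EV libraries, with 13 counts over all EV libraries. With library totals 17 members were called, 6 higher and 11 lower. On the TMM scale the median log2 fold change of the 21 members tested was -0.13 against -0.08 over all genes tested. These values use TMM scaling, and with library totals alone the median of all genes moved to -0.88, so both values are given where a call depends on the scaling. The 3 libraries of a culture entered as independent, so p-values measure the spread among these libraries.

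On the TMM scale Cyp39a1 was at 1.52 to 3.54 CPM in cells (median 2.90) and 5.51 to 18.6 in EVs (median 12.8). All 18 EV libraries lay above every cell library, and the log2 fold change was 2.21 ± 0.12 (SE; adjusted p = 5.35e-18, edgeR), or 1.42 with library totals. The other sterol genes tested did not pass: Cyp46a1 was at -0.13 ± 0.23 (adjusted p = 0.616, edgeR) and Cyp7b1 at -0.26 ± 0.23 (adjusted p = 0.291, edgeR), both in ranges that overlapped, and with library totals they were lower in EVs at -0.94 and -1.15.

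Cyp20a1 was at 17.7 to 29.0 TMM-scaled CPM in cells and 1.66 to 10.2 in EVs, with no overlap, and fell by 2.10 on the log2 scale (SE 0.14, adjusted p = 2.57e-16, edgeR). Cyp2j6 was at 21.2 to 82.1 in cells and 4.11 to 15.6 in EVs, again apart, and differed by -2.44 ± 0.18 (adjusted p = 5.61e-15, edgeR). Cyp2j9 was at 5.27 to 44.0 in cells and 0 to 8.20 in EVs, where 14 of 18 libraries lay below every cell library, and differed by -2.19 ± 0.27. Of the Cyp4f genes Cyp4f13 differed by -1.63 ± 0.22, Cyp4f14 by -2.03 ± 0.55 and Cyp4f16 by -0.54 ± 0.15, each lower in EVs in 6 of 6 cultures. Cyp4f17 went the other way at 0.74 ± 0.20 on the TMM scale in 6 of 6 cultures but was at -0.08 with library totals, so its direction depends on the scaling.

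Cyp1b1 was lower in EVs by the test, at -0.90 ± 0.40 (adjusted p = 0.0385, edgeR), but in 4 of 6 cultures only, and its ranges overlapped (0.708 to 6.59 TMM-scaled CPM in cells, 0 to 4.98 in EVs). Without the set 5 pregnancy the value was 0.09, and without set 4 it was -0.89 with an adjusted p of 0.117 in edgeR. When each EV library was paired with its own cells it was -0.75 with an adjusted p of 0.0634 in edgeR. The lower level thus rested on the set 5 cultures, whose cells held the highest Cyp1b1.

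Aromatase (Cyp19a1) had the largest log2 fold change of the 21 members tested, 3.86 ± 0.28. It had 204 counts over the 18 cell libraries, at 0.0684 to 0.628 TMM-scaled CPM, and 1 to 22 counts in each EV library, at 0.546 to 11.03 TMM-scaled CPM, where 17 of 18 lay above every cell library. Cyp2c39 differed by 3.23 ± 0.21 with all 18 EV libraries above the cells, Cyp2c66 by 2.66 ± 0.22 and Cyp2c23 by 2.28 ± 0.33. These 4 met the filter on low counts through the EV libraries alone, so they had to be higher there, and only 61.2% of the span of Cyp2c39 is free of other genes in the RefSeq table.

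Cyp2u1 was higher in EVs at 1.22 ± 0.16 (2.93 to 13.6 TMM-scaled CPM against 1.98 to 3.89 in cells) and at 0.42 with library totals. Of the vitamin D pair, Cyp24a1 differed by 1.14 ± 0.22 and Cyp27b1 by 1.03 ± 0.22, the latter in 4 of 6 cultures, and with library totals neither passed (0.30 and 0.22). Cyp2j13 (-1.04 ± 0.51), Cyp4f15 (-0.67 ± 0.55) and Cyp2j8 (0.62 ± 0.37) did not pass. Cyp2j13 did when libraries were paired, at -1.13 (adjusted p = 0.0156, edgeR), and with library totals Cyp2j13 passed at -1.84 (adjusted p = 0.000509, edgeR) and Cyp4f15 at -1.48 (adjusted p = 0.00836, edgeR).

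**Figure D4:**
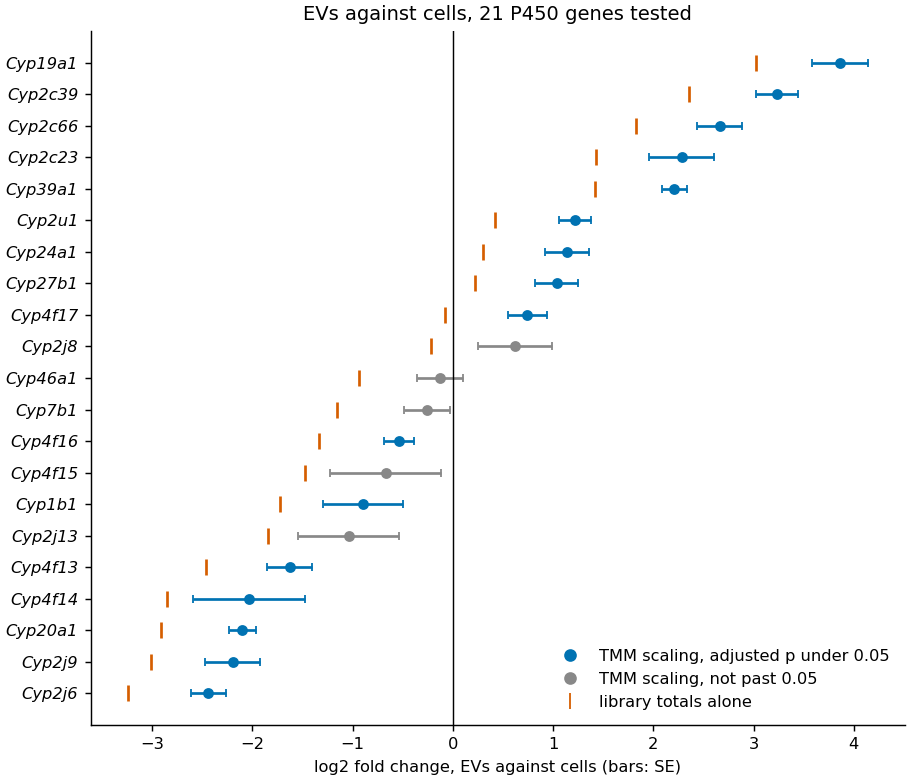
log2 fold change of EVs against cells (x axis) for the 21 P450 genes tested (y axis); circles are TMM-scaled values with SE bars, blue where the adjusted p was under 0.05, and the orange ticks are the values with library totals. The ticks lie left of the circles for every gene, and Cyp4f17 and Cyp2j8 change sign between the 2 scalings.

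Without a filter on low counts 84 members could be tested, and 57 were called higher and 12 lower in EVs, where 70.9% of 31069 genes were called, 40.7% higher and 30.2% lower. Many of these rest on few counts: the near-zero members reached at most 13 counts in any EV library and 25 in any cell library.

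Genes that serve the P450 enzymes were called in both directions, as were 80.5% of all genes tested (38.4% higher and 42.2% lower), so the counts of these short lists are not set apart from that background. Of 9 electron donors and heme proteins tested 3 were called higher and 3 lower in EVs: Fdxr differed by 1.34 ± 0.12, while its partner Fdx1 differed by -1.77 ± 0.17 and the heme-binding Pgrmc1 by -3.38 ± 0.15. Por was at 0.48 ± 0.18. Of 11 regulators 7 were called higher, among them Ppara at 2.31 ± 0.25, and 3 lower, among them Tiparp at -2.49 ± 0.16. Of markers of other cell types tested, 3 of 3 endothelial and 1 of 2 fibroblast genes were higher in EVs. So were 1 of 1 microglial gene and 1 of 1 hepatocyte gene (Cps1, 3.21 ± 0.32), out of 5 and 12 listed. Of 2 neuron genes tested 0 were higher and 1 lower, and 5 of 7 NSC markers were lower. Cps1 was at 0.228 to 0.658 CPM in cells. The filter limit was 0.624 CPM, so Cps1 was tested largely through the EV libraries, where it is high. The 5 microglial markers averaged at most 0.465 CPM in cells (Csf1r), so the same holds for the 1 tested. Listed regulators and endothelial genes such as Nr1i3 (0.526 CPM), Nr1h4 (0.534) and Kdr (0.596) also averaged under the limit in cells. For such genes the filter favours a higher level in EVs, so these counts of higher genes cannot be read as enrichment. The part of these cell types in the P450 values was not tested.

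No member passed the threshold with ethanol, in cells or in EVs. In cells 28 members were tested and 0 called at either dose, where 0.0393% of 17792 genes were called at 320 mg/dL and 0% at 120 mg/dL. DESeq2 also called 0 of them at both doses. At an unadjusted p under 0.05 edgeR and DESeq2 each had 3 members at 320 mg/dL and 0 at 120 mg/dL. In EVs 10 members were tested and 0 called by either tool, 0 of them also unadjusted, against 0.0842% of 11880 genes at 320 mg/dL and 0.00842% at 120 mg/dL in edgeR.

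The 3 were the leading genes of the cells, and these were named after their values were seen. Cyp20a1 was at 25.9 to 38.6 TMM-scaled CPM in the 6 control cell libraries (median 33.1), 24.2 to 39.0 at 120 mg/dL (median 30.4) and 23.3 to 37.4 at 320 mg/dL (median 27.7). The ranges overlapped almost fully, but on the TMM scale the 320 mg/dL library was lower than control in 6 of 6 cultures. The log2 fold change was -0.19 ± 0.05 (adjusted p = 0.308, edgeR). In CPM of the library total the set 3 male culture went the other way, at 43.1 at 320 mg/dL against 41.7 at control. Cyp2j9 was at 7.00 to 48.1 TMM-scaled CPM in controls (median 18.8) and 10.2 to 59.0 at 320 mg/dL (median 27.0). On that scale it was higher in 6 of 6 cultures at 0.34 ± 0.11 (adjusted p = 0.386, edgeR). In CPM of the library total its set 3 female culture was slightly lower, at 7.64 at 320 mg/dL against 7.73 at control. Cyp2j6 was at 28.2 to 87.6 and 45.6 to 110.1 TMM-scaled CPM (medians 62.4 and 73.5), higher in 5 of 6 at 0.31 ± 0.11 (adjusted p = 0.424, edgeR). None of these 3 passed the correction over all genes.

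The median SE of a log2 dose effect was 0.20 over the members tested in cells and 0.32 over those in EVs. For a member with that median SE in EVs, a shift of the size seen for Cyp2j9 in cells was too small to detect. The shift of Cyp2j9 was itself not called in cells, and Cyp39a1 and Cyp2j6 had smaller SEs in EVs. The EV values of the leading genes at 320 mg/dL were -0.12 ± 0.16 for Cyp39a1, 0.12 ± 0.19 for Cyp2j6, 0.29 ± 0.31 for Cyp2j9, 0.10 ± 0.28 for Cyp20a1 and 0.16 ± 0.32 for Cyp2u1. For the change of the EV-to-cell ratio with dose, 38 members were tested and 0 called at either dose, with 0 also at an unadjusted p under 0.05 in edgeR and in DESeq2, where 0% of 18728 genes were called at 320 mg/dL and 0.00534% at 120 mg/dL. The median SE of a member was 0.80 there. Cyp1a1, the classical induced gene, had 0 to 0.111 TMM-scaled CPM in control cells and 0 to 0.0503 at 320 mg/dL.

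**Figure D5:**
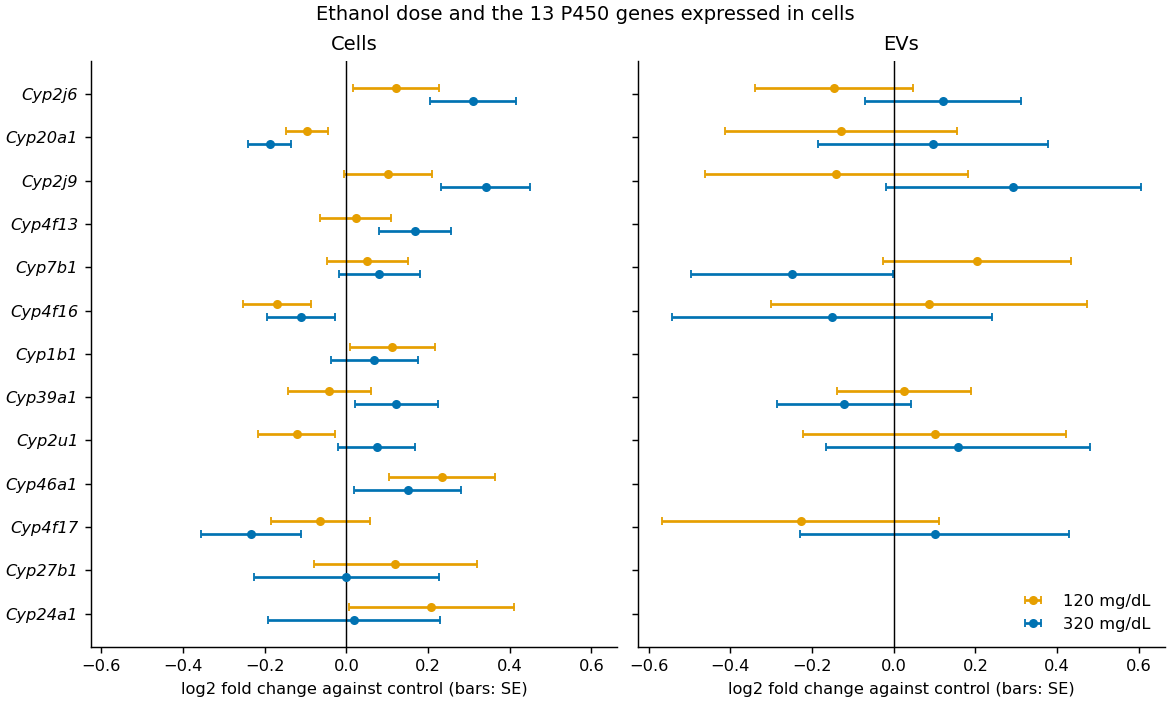
log2 fold change against control (x axis) at 120 mg/dL (orange) and 320 mg/dL (blue) of the 13 expressed P450 genes in cells (left) and of the 8 of them that could be tested in EVs (right); bars are SE. In cells the largest shifts at 320 mg/dL are those of Cyp2j9 at 0.34 and Cyp2j6 at 0.31, and in EVs every SE bar at 320 mg/dL is wider than that of the same gene in cells.

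Between sexes 0 of 26 members tested in cells and 0 of 7 in EVs were called, where 5.83% of 17052 and 11.1% of 11037 genes were. At an unadjusted p under 0.05 edgeR had 4 members in cells and 1 in EVs, and DESeq2 called 1 in each (Cyp4f14 and Cyp39a1). With the pregnancy, which a female and a male culture share, as a block, edgeR called 6 members in cells and 2 in EVs, where 17.3% and 27.1% of all genes were called. In this fit the 3 libraries of a culture count as independent, and with counts summed over doses, 3 cultures a sex, 0 members were called in either.

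In cells Cyp4f14 had the smallest p and was at 0.35 to 2.05 TMM-scaled CPM in the 9 female libraries (median 1.08) and 1.18 to 4.54 in the 9 male ones (median 2.02). It was lower in females in all 3 pregnancies, with a log2 fold change of -1.18 ± 0.37 (adjusted p = 0.0698, edgeR) and an adjusted p of 0.00298 with the block. Cyp2j9 was also lower in the female culture of each pregnancy (-0.84 ± 0.37, adjusted p = 0.187 and 0.00129 with the block, edgeR), with female means of 8.48, 17.5 and 30.4 and male means of 13.7, 47.4 and 39.6 TMM-scaled CPM in sets 3, 4 and 5. Cyp2j6, Cyp2j13 and Cyp1b1 were lower in females with the block at -0.42, -0.93 and -0.74, and Cyp2c39 was higher at 0.65. In EVs Cyp39a1 was at 4.21 to 10.6 TMM-scaled CPM in female and 7.60 to 13.4 in male libraries, a difference of -0.55 ± 0.18 (adjusted p = 0.0544, and 0.0289 with the block, edgeR) that was seen in 2 of 3 pregnancies. Cyp7b1 was higher in female EVs at 0.72 with the block (adjusted p = 0.0195, edgeR).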

How the data were processed

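The deposited files hold raw counts per gene, 1 file for each library, which the authors made from stranded, ribosomal RNA-depleted libraries by deduplication, trimming with Trimmomatic, alignment with STAR to mm39 and counting with HTSeq. The counted feature, the annotation release and whether strand was used are not given in the sources used here. Groups came from the sample labels. Levels are CPM of the library total, and comparisons use TMM-scaled CPM.

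Tests were edgeR 4.0.16 quasi-likelihood fits in R 4.3.3 on all genes kept by filterByExpr (minimum count 10, minimum total 15), with Benjamini-Hochberg adjustment over all genes tested and a threshold of 0.05. EV against cells had terms for sex and dose, dose effects had the culture as a block, the EV-to-cell ratio was fitted within pairs of matched libraries, and sex had a term for dose. DESeq2 1.42.0 was an alternative. The fits were tested on simulated data. Tables were made in Python 3.11.15. Gene models were GENCODE for GRCm39, in which all 91 members matched by symbol, and promoter sequences were read from that genome. Overlap with other genes came from a RefSeq table of another build, GRCm38.p6, in which 96.3% of the symbols matched.

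Deviations from the group means were compared between libraries that the labels place in 1 culture or pregnancy. The control and 320 mg/dL libraries of a culture had a median correlation of 0.725 in cells and 0.501 in EVs, female and male libraries of a pregnancy 0.408 and 0.186, and EV and cell libraries of a pair 0.0727.

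The genes named were the expressed members, members past the threshold, the 3 with most counts in cells and in EVs and members at 0, with others named for their role. Members and lists were chosen with earlier results of these data known. Totals of 0.959 to 5.51 M counts limit precision in EVs.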

Additional observations from a re-analysis of the deposited data

Results flagged for a closer look

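Of 126 groups of 6 cultures (21 members, at each dose, in cells and in EVs) 12 held a library far from the others by Dixon's ratio, where chance gives about 1 in 20 groups. In cells Cyp2c23 was at 4.00 CPM (109 counts) in the set 3 female culture at 120 mg/dL, against 0.261 to 0.689 in the other 5. Cyp39a1 was low in the set 3 female culture at 320 mg/dL, at 1.84 CPM against 4.04 to 4.38. The control and 120 mg/dL libraries of that culture were also the lowest of their doses, at 2.23 and 2.38 CPM. Cyp27b1 was high in the set 3 male culture at 120 mg/dL, at 3.00 CPM, and in the set 5 female culture at 320 mg/dL, at 2.52 CPM. In that same library Cyp24a1 was at 1.11 CPM against 0.572 to 0.722. The set 5 female culture held Cyp27b1 at 2.27 CPM at control and 1.46 at 120 mg/dL, and Cyp24a1 at 0.902 and 1.08. Cyp19a1 was at 0.825 CPM in the set 5 male culture at 120 mg/dL.

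The control EV library of the set 4 female culture stood out for 3 genes, with Cyp19a1 at 10.3 CPM (14 counts), Cyp2c23 at 4.41 CPM (6 counts) and Cyp2j13 at 2.94 CPM (4 counts), and its total of 1.36 M counts was among the lowest. The EVs of that culture at 320 mg/dL had 0 counts of Cyp27b1, where the others were at 1.54 to 2.16 CPM. Cyp2c66 was at 2.699 CPM (7 counts) in the set 5 female EVs at 320 mg/dL, and the 1.04 CPM of Cyp4f14 in the set 3 male EVs at 120 mg/dL was 1 count.

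On the TMM scale Cyp2j6 and Cyp2j13 differed between sexes in opposite directions in EVs and cells, in all 3 pregnancies each way. For Cyp2j13 the mean female minus male log2 of TMM-scaled CPM was 0.42 in EVs and -0.84 in cells, 1.26 apart. For Cyp2j6 it was 0.32 and -0.42, 0.74 apart. The direction of Cyp2j6 in the set 4 EVs depends on the scaling, and in set 3 it differed between doses in CPM of the library total. There the set 3 female EVs were below the male ones at control (3.56 against 5.37) and at 320 mg/dL (7.54 against 8.10). At 120 mg/dL they were above them (5.08 against 3.13). In CPM of the library total the set 4 female EVs were below the male ones at control and at 320 mg/dL (3.88 against 8.17). At 120 mg/dL the set 4 female EVs were above the male ones (7.18 against 6.83). Cyp2j13 had 24 counts over all 18 EV libraries, 0 to 4 in each, and 4 of the 5 counts in the set 4 female EVs came from the control library named above. These differences were not tested.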

How the results depend on the processing

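The EV against cells count of 16 members became 69 with no filter on low counts and 27 with counts summed over doses, 13 to 17 with 1 pregnancy left out, and 19 without the 6 EV libraries under 2 M counts, an alternative added after seeing the data. Cyp4f17 turned to -0.0793 with library totals, and Cyp1b1 ran from -1.48 to 0.0905 with 1 pregnancy left out, where set 5 decides its direction. Pairing EV and cell libraries as a replicate block left 16 calls. The cause of the changes beyond fewer or more genes tested was not tested.

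No dose or ratio call was made under any alternative run for them. For sex in EVs the count of 0 became 1 in DESeq2, 5 with no filter and 2 with the pregnancy as a replicate block, and ran from 0 to 2 with 1 pregnancy left out (2 without set 3). For sex in cells the count of 0 became 1 in DESeq2, 1 with library totals and 6 with the pregnancy as a replicate block, and ran from 0 to 4 with 1 pregnancy left out (4 without set 3).

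Expressed members numbered 25 at a floor of 0.1 CPM and 6 at 0.5 CPM per kilobase of exon, and 13 to 16 with 1 pregnancy left out. The median number of members detected was 29 in EVs and 20 in cells at equal library totals, 22 and 43.5 with a minimum of 3 counts, and 7 and 25 with a minimum of 10.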
